A study of Glycine max with 4 samples.

Results

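Chromosomes 3 and 19 of soybean (Glycine max) carried 4143 of the 44959 sites at which both replicates of a chromatin immunoprecipitation with sequencing (ChIP-seq) experiment had a peak. Chromosome 3 held 2020 of them and chromosome 19 held 2123. The members are all rows of both deposited peak lists that name these chromosomes, 4465 peaks in replicate 1 and 5797 in replicate 2. A shared site is a pair of peaks, 1 from each list, that are each other's largest overlap, with at least 1 bp in common. Its position is the midpoint of both summits, a summit being the base with the highest read pileup. Positions are counted from 1 on the authors' coordinates, for which the sources used here name no genome build.

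There are 2 ChIP samples, and also 2 input samples, the latter being sonicated chromatin set aside before immunoprecipitation. All are from Williams 82, a reference cultivar of soybean, and from embryos at the mid-maturation stage, dissected from seeds of 200 to 250 mg. The antibody was raised against a peptide of amino acids 1 to 15 of the protein of locus GLYMA.13G317000, and the study set out to find where in the embryo genome that protein binds. The design text calls the replicates biological. There was no immunoprecipitation other than the one with this antibody, and a file of the input samples was not used here, so what the antibody would bring down without its target was not analysed here.

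Mid-maturation is the phase in which a soybean embryo fills its cells with storage proteins and oil. Glycinins, the 11S globulins, are among the main storage proteins of the seed, and the major glycinin genes are transcribed strongly at this stage. The soybean genome carries duplicated segments from ancient whole-genome duplications, and chromosomes 3 and 19 share such segments. The RefSeq gene table, made on assembly Glycine_max_v4.0, lists the glycinin genes GY2 and GY1 as direct neighbours on chromosome 3, and GY7 and GY3 as direct neighbours on chromosome 19, with 0 genes between the members of each pair. That assembly was not shown to be the one of the peak lists, so no site was assigned to a gene and no sequence is given. Soybean chromosomes generally have gene-rich ends and gene-poor, repeat-rich middles around the centromere.

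Both chromosomes were close to the rest of the genome in the number of sites per Mb. The span of a chromosome was taken from base 1 to the last peak end, 45764880 on chromosome 3 and 50743266 on chromosome 19. Chromosome 3 had 44.1 shared sites per Mb (95% Poisson interval 42.2 to 46.1), with 47.4 peaks per Mb in replicate 1 and 61.8 in replicate 2. Chromosome 19 had 41.8 (40.1 to 43.7), with 45.2 in replicate 1 and 58.5 in replicate 2. Chromosome 3 was thus slightly the denser in both replicates, and the intervals of the shared sites overlapped. The intervals here and below cover counting error only, and neighbouring sites are not independent. All 20 chromosomes together had 47.2 per Mb, and the pair ranked 11th and 13th of 20.

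Pairing was about as frequent as elsewhere. In replicate 1, 93.1% of the chromosome 3 peaks (95% Wilson interval 92.0 to 94.1) and 92.5% of the chromosome 19 peaks (91.3 to 93.5) had a partner, against 93.3% of all peaks in that list. In replicate 2 the background share was 72.1%, and 71.5% of both the chromosome 3 and the chromosome 19 peaks were paired. The smallest overlap that made a pair was 98 bp on chromosome 3 and 3 bp on chromosome 19. The latter pair was at 27704560, with folds of 4.01 in replicate 1 and 4.56 in replicate 2. Just outside the rule, the replicate 1 peak nearest to a replicate 2 peak lay 14 bp from it on either chromosome, with a fold of 4.77 on chromosome 3 and 4.13 on chromosome 19.

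Sites were piled up towards the far end of both chromosomes. On chromosome 3 the last 20% of the span held 1051 sites (52.0%) and the first 20% held 375 (18.6%). On chromosome 19 the last 20% held 1162 sites (54.7%) and the first 20% held 358 (16.9%). The end therefore held 2.80 times as many sites as the start on chromosome 3 and 3.25 times as many on chromosome 19. In this ratio chromosome 19 had rank 2 of 20 and chromosome 3 had rank 4. Chromosome 13 had rank 1 with 15.6, and the median over chromosomes was 0.905. By raw count chromosome 19 had more sites in its last 20% than any other chromosome. Per Mb its last 20% had 114.5 sites and that of chromosome 3 had 114.8. Chromosome 6 had 1260 sites in its first 20%.

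Between the ends the density fell on both chromosomes. From start to end in steps of 20% of the span, chromosome 3 had 41.0, 7.65, 10.4, 46.9 and 115 sites per Mb. Chromosome 19 had 35.3, 3.94, 9.66, 45.8 and 114 sites per Mb. The low point on both came between 20% and 40% of the span, and the steep rise came after 60%. The chromosomes differed most in relative terms at that low point, and by less than 1 site per Mb in the middle step and in the last. Inside the middle step their sites lay differently. The 2% of the span centred at 41% held 24 sites on chromosome 3 and 3 on chromosome 19. The 2% centred at 55% held 7 and 31. The outer 40% of the span, 20% at each end, had 7.51 times the density of the middle 20% on chromosome 3 (7.52 and 7.13 in replicates 1 and 2 alone). On chromosome 19 the ratio was 7.76 (8.11 and 8.64). The median over 20 chromosomes was 7.57.

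**Figure D1:**
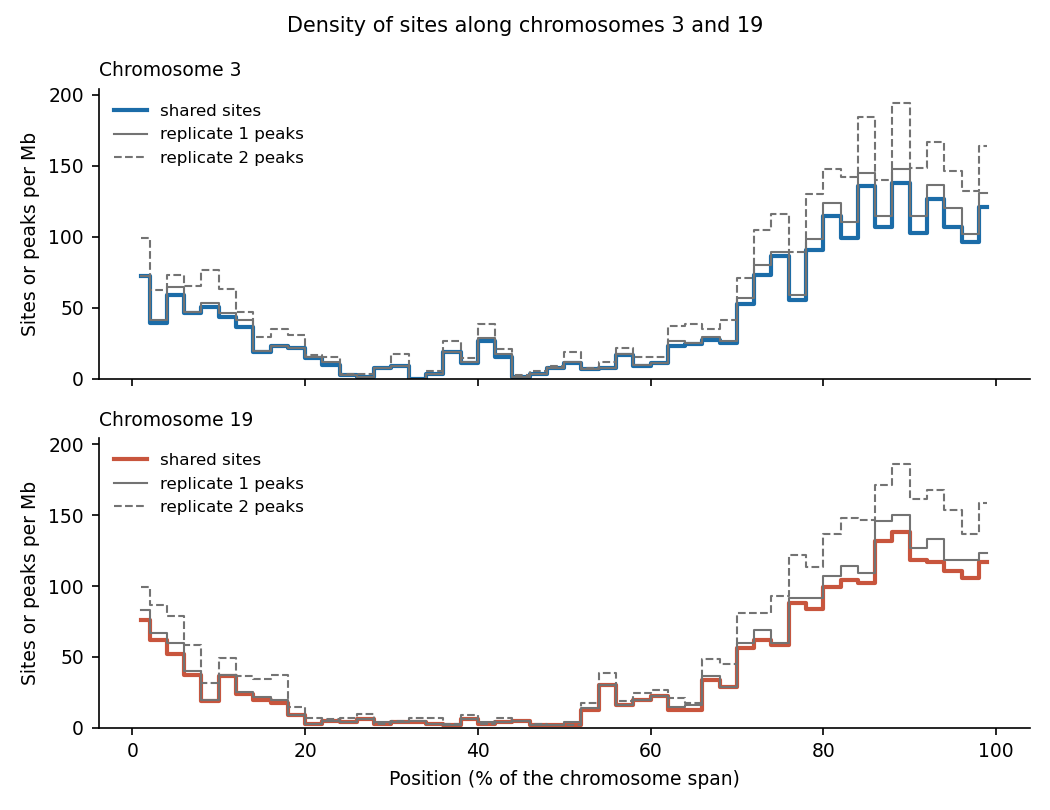
Shared sites per Mb (coloured) and deposited peaks per Mb in replicate 1 (grey line) and replicate 2 (dashed) in 50 equal shares of the span of chromosomes 3 and 19; the horizontal axis is the position in percent of the span. Both chromosomes have a moderate start, a sparse stretch and a dense end, with 52.0% and 54.7% of their shared sites in the last 20%.

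The profiles were alike when each span was cut into 50 equal shares. Across the 50 shares, site numbers of chromosomes 3 and 19 had a Pearson's r of 0.952 and a Spearman's rho of 0.864. The r was the highest of all 190 pairs of chromosomes, whose median was 0.665 and whose lowest was -0.770. It was also the highest in the peaks of replicate 1 alone (0.953) and of replicate 2 alone (0.961). By rho the pair ranked 12th of 190. All profiles were compared in the direction of their numbering, and reversed profiles were not compared. Some chromosomes had most sites near their start, with last-to-first ratios of 0.398 on chromosome 6 and 0.295 on chromosome 15. The ranks, the median and the lowest r therefore depend on that direction. These are descriptions: the points of 1 chromosome are neighbours along it, and both profiles come from the same libraries.

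The rank depended on how the chromosomes were laid against each other. With 1 Mb bins counted back from the last peak end, r was 0.927 and again had rank 1 of 190, while rho was 0.792 and had rank 24. With bins counted from base 1, r was 0.860 with rank 11 and rho was 0.852 with rank 3. Counting from base 1 thus gave the poorest rank by r and the best rank by rho. By r, the chromosome most like chromosome 3 after 19 was chromosome 20 (r = 0.889). The chromosome most like 19 after 3 was also chromosome 20 (r = 0.905). By rho, chromosome 9 (0.878) was closer to chromosome 3 than chromosome 19 was (0.864). For chromosome 19, the rho of 0.864 with chromosome 3 was above those with 9 (0.835), 10 (0.824) and 20 (0.819). Chromosome 20 also has a dense end and a thinner start, with 3.15 times as many sites in its last 20% as in its first. A dense end was thus not limited to chromosomes 3 and 19. In the last 5 Mb these had 114.8 and 114.4 sites per Mb, with ranks 3 and 4 of 20. Chromosome 1 had 118.2 there and chromosome 5 had 115. In the first 5 Mb chromosome 11 had 134.6 and chromosome 17 had 125.4. Chromosomes 3 and 19 had only 50.6 and 49.8 in their first 5 Mb, with ranks 17 and 18 of 20.

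The dense stretches at the ends had nearly the same site number per Mb. A 1 Mb bin was called dense at 94.3 sites or more, 2 times the mean over the chromosomes, a threshold set after the profiles were seen. Chromosome 3 had 8 such bins and chromosome 19 had 9. The last bin of each chromosome is shorter than 1 Mb and was judged by its unscaled count. That bin held 100 sites on chromosome 3 (45000001 to 45764880) and 80 on chromosome 19 (50000001 to 50743266). The last 2% of the span of chromosome 19 had 117 sites per Mb, so its dense end was not shown to stop at 50000000. The longest unbroken dense stretch of chromosome 3 ran from 37000001 to 44000000 and held 830 sites, or 119 per Mb, with 110 to 134 in each of its 7 bins. The one on chromosome 19 ran from 42000001 to 50000000 and held 947 sites, or 118 per Mb, with 101 to 136 in each of its 8 bins. Neighbouring sites were a median of 5363 bp apart in the first stretch and 5478 bp apart in the second. The longest interval between neighbours was 64292 bp in the first and 63545 bp in the second.

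The bins with most sites were of similar height. Bins were ranked by count, unscaled for the shorter last bins. The highest bin of chromosome 3, from 40000001 to 41000000, held 134 shared sites, from 145 peaks in replicate 1 and 192 in replicate 2. The highest bin of chromosome 19, from 44000001 to 45000000, held 136 shared sites, from 148 and 172 peaks. The next bins of chromosome 3 began at 42000001 (125 sites), 37000001 (124), 38000001 (115) and 43000001 (112). The next bins of chromosome 19 began at 45000001 (130 sites), 47000001 (122), 49000001 (121) and 46000001 (119). All 10 bins exceeded the threshold for a dense bin. The densest 25% of all 1 Mb bins of the genome held 54.5% of the chromosome 3 sites and 57.5% of the chromosome 19 sites. The share of all sites in those bins is not given here. Bins past the dense threshold held 46.0% of the chromosome 3 sites and 49.2% of the chromosome 19 sites. Over all 20 chromosomes such bins held 21105 of 44720 sites, a similar share.

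Sparse zones differed in shape. A bin was called sparse at 9.43 sites or fewer, the mean divided by 5, again a threshold set after the profiles were seen. Chromosome 19 had 17 such bins, all in 1 unbroken stretch from 10000001 to 27000000, which held 59 shared sites. Each of its bins held between 1 and 7 sites, and neighbouring sites were a median of 235248 bp apart. Chromosome 3 had 13 sparse bins, but they were broken up. Its longest sparse stretch ran from 11000001 to 17000000, with 27 sites in 6 bins, and bins of 14 to 22 sites followed it from 17000001 to 20000000. Sparse bins held 3.51% of the chromosome 3 sites and 2.78% of the chromosome 19 sites. Over all 20 chromosomes they held 1133 of 44720 sites.

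The sparse zone of chromosome 19 ended abruptly. The bin from 26000001 to 27000000 held 2 shared sites, and the next, from 27000001 to 28000000, held 38, followed by 12. Those 38 sites came from 39 peaks in replicate 1 and 49 in replicate 2 and were spread over 960 kb, a median of 10502 bp apart. Their median strength, the geometric mean of both fold enrichments, was 8.66, and 6 of them reached a strength of 20. The bin was singled out after its values were seen, as the one that stood highest above its neighbours in the central 40% of the span. By the same measure chromosome 3 had a bin of 18 sites between bins of 9 and 7.

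Although chromosome 19 was the sparser in its middle, its longest empty interval was the shorter. The longest interval between neighbouring shared sites was 1.65 Mb on chromosome 3, from 14557054 to 16207403. It held no unpaired peak of replicate 1 and 1 of replicate 2, with a fold of 4.30. On chromosome 19 the longest was 0.890 Mb, from 20123995 to 21014379, with 1 unpaired peak of replicate 1 (fold 4.27) and none of replicate 2. By longest interval chromosome 3 had rank 5 of 20 and chromosome 19 had rank 19. By the number of intervals over 500 kb the order was the other way, with 6 on chromosome 3 and 13 on chromosome 19. Chromosome 19 thus had many long intervals of similar size, and chromosome 3 had a few longer ones.

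The other long intervals of chromosome 3 ran from 20219889 to 21748037 (1.53 Mb), from 10261310 to 11454651 (1.19 Mb), from 12063887 to 13129735 (1.07 Mb) and from 11477940 to 12063887 (0.586 Mb). The interval from 10261310 to 11454651 ended at a site of strength 21.2. The other long intervals of chromosome 19 ran from 23188803 to 24022632 (0.834 Mb), from 10944745 to 11764112 (0.819 Mb), from 15272418 to 16057062 (0.785 Mb) and from 25202232 to 25957009 (0.755 Mb). All 5 lay in its sparse stretch. The site at 10944745, on the border of an interval, had a strength of 29.2. Unpaired peaks inside these 10 intervals numbered at most 4 per list and interval, and none exceeded a fold of 8.27. How readily reads align in these zones was not examined, so an empty interval shows no called peak and not that the protein was absent.

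**Figure D2:**
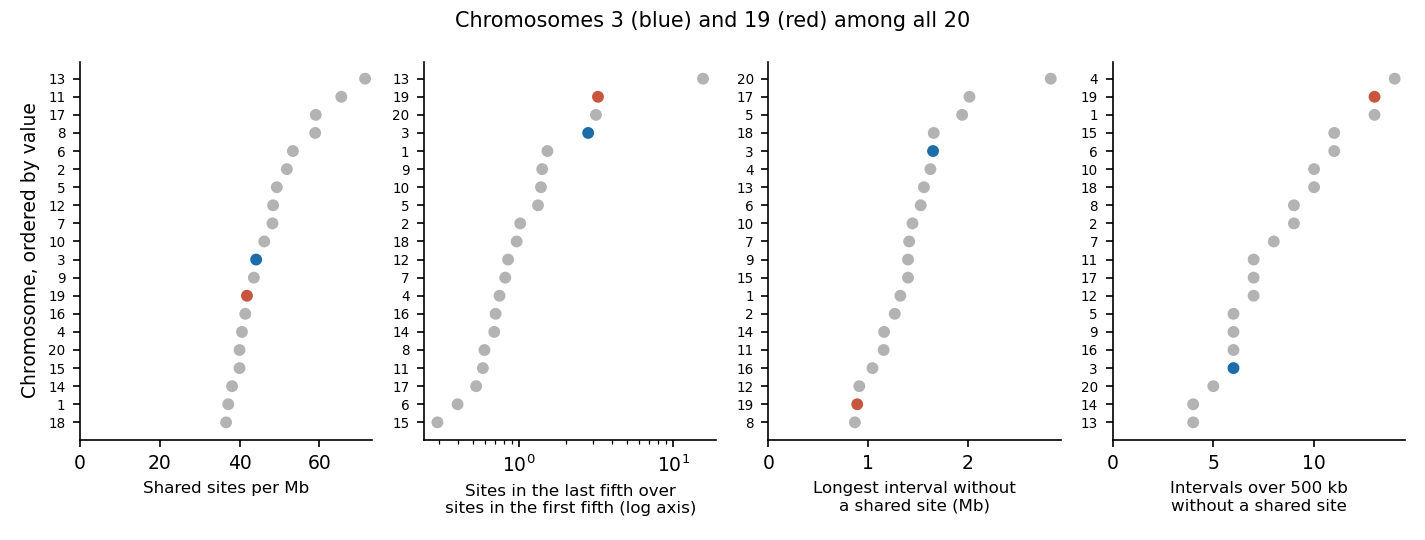
Each panel orders all 20 chromosomes by 1 measure: shared sites per Mb, sites in the last over the first 20% of the span (log axis), the longest interval without a shared site in Mb, and the number of intervals over 500 kb. Chromosomes 3 (blue) and 19 (red) are neighbours or near neighbours in the first and second panels and far apart in the third (1.65 and 0.890 Mb) and the fourth (6 and 13 intervals).

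Local spacing was close to that in the rest of the genome. The median distance between neighbouring sites was 7489 bp on chromosome 3 and 7330 bp on chromosome 19, against 7028 bp over all chromosomes. The lowest and highest chromosome medians were 5917 and 8349 bp. A neighbour within 1 kb was found for 12.4% of the chromosome 3 sites and 13.2% of the chromosome 19 sites, against a median of 12.2% over chromosomes.

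**Figure D3:**
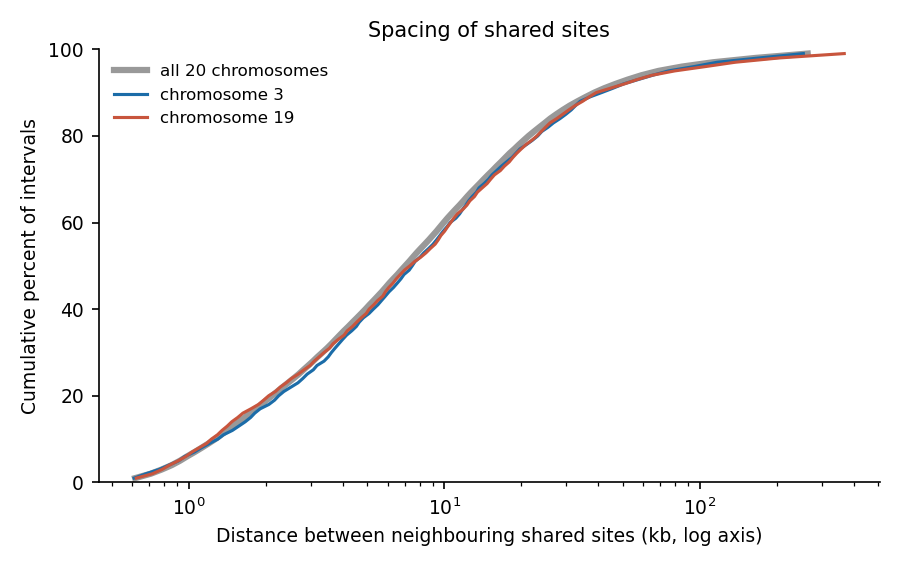
Cumulative percent of intervals (vertical axis) by the distance between neighbouring shared sites in kb (log axis), up to the 99th percentile, for chromosome 3 (blue), chromosome 19 (red) and all 20 chromosomes (grey). The curves nearly coincide, with medians of 7.49, 7.33 and 7.03 kb.

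Close runs, defined as 3 or more sites with neighbours at most 10 kb apart, held 64.4% of the chromosome 3 sites (269 runs) and 60.6% of the chromosome 19 sites (266 runs). The share over all chromosomes was 64.5%. Runs of 10 or more sites numbered 17 on each chromosome. The run with most sites on chromosome 19 had 19 sites in 70.6 kb, from 40469690 to 40540255, with strengths from 3.97 to 22.2. A second run of 19 sites, from 44042178 to 44118023, reached a strength of 26.9 at 44045290 and held 3 sites of strength 20 or more. Another had 16 sites in 58.9 kb, from 50261350 to 50320207, near the end of the chromosome.

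On chromosome 3 the runs with most sites had 16 sites each. The shortest, from 40060105 to 40119452, covered 59.3 kb and held the strongest site of the 3, at 40069128, with folds of 29.1 in replicate 1 and 47.4 in replicate 2. The next, from 37428654 to 37490318, peaked at 37466071 with folds of 31.6 and 31.0. The last, from 38744440 to 38815219, had no site of strength 20, and its highest was 14.6. The median strength within these 6 runs on both chromosomes was between 6.30 and 8.53, so long runs were mostly made of sites of ordinary strength around at most 3 strong ones.

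Strengths were spread alike on both chromosomes. The median strength was 7.82 on chromosome 3 and 7.94 on chromosome 19, against 7.92 over all chromosomes. In replicate 1 the median fold was 6.99 on chromosome 3 and 7.04 on chromosome 19, and in replicate 2 it was 9.14 on both. A strength of 20 or more was reached by 168 sites on chromosome 3 (8.32%, Wilson interval 7.19 to 9.60) and by 177 on chromosome 19 (8.34%, 7.24 to 9.59). The share over all shared sites was 8.55%. Just inside that threshold lay strengths of 20.003 on chromosome 3 and 20.002 on chromosome 19, and just outside lay 19.89 and 19.99.

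Median strength was similar in dense and sparse bins. On chromosome 3 it was 7.82 in dense bins, 7.74 in sparse bins and 7.84 in the bins between. On chromosome 19 it was 7.99, 7.94 and 7.88. Sites of strength 20 or more made up 9.89% of the sites in the dense bins of chromosome 3 (8.14 to 11.98), 7.16% in the bins between (5.74 to 8.91) and 4.23% in the sparse ones (1.45 to 11.7). On chromosome 19 these shares were 8.61% (7.06 to 10.5), 8.05% (6.53 to 9.88) and 8.47% (3.67 to 18.4). Over all 20 chromosomes they were close to each other, at 8.69%, 8.43% and 8.03%. The intervals overlapped on both chromosomes, the sparse bins held only 71 and 59 sites, and the differences were not tested.

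Of the 10 strongest sites of each chromosome, 6 on chromosome 3 and 7 on chromosome 19 lay in the last 20% of the span, where 52.0% and 54.7% of all their sites lay. All 20 named sites had folds of at least 33.2 in replicate 1 and 43.1 in replicate 2. Summit pileups were 131 to 316 reads in replicate 1 and 189 to 332 in replicate 2. Among all shared sites of the series the pair's strongest ranked 14th (chromosome 3) and 15th (chromosome 19). A fold of 50 or more in both replicates was reached by 3 sites on chromosome 3 and 2 on chromosome 19, against 0.0734% of all shared sites.

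The strongest site of chromosome 3 was at 37825856, where the peaks of both lists overlapped from 37825506 to 37826228. Replicate 1 had a pileup of 286 reads there, a fold of 51.0 with a 95% counting interval from 45.3 to 57.2. Replicate 2 had 301 reads, a fold of 69.5 with an interval from 61.9 to 77.7. The pileups were thus closer than the folds, and the local background was 4.63 and 3.35 reads. The fold divides the pileup by the background after 1 read is added to each. The second, at 45481927, lay 282953 bp from the last peak end of the chromosome and had folds of 50.2 (235 reads) and 57.9 (261 reads). The site at 23959141 stood at 52.4% of the span, in a bin of 13 sites. Its folds were 56.3 (316 reads) and 49.4 (332 reads), and by the geometric mean of both pileups it had rank 1 of all shared sites in the series.

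Other strong sites of chromosome 3 had pileups from 171 reads upwards. At 36006078 the folds were 52.9 and 52.1, and at 33228039 they were 43.7 and 59.7. The site at 1877861, in the first 20% of the span, had folds of 43.9 and 57.5. Those at 41862116, 40416921, 43380539 and 45015302 had strengths from 44.3 to 47.7. The fold was higher in replicate 2 at 8 of these 10 sites, against 78.4% of all shared sites.

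The strongest site of chromosome 19 was at 6471545, in the first 20% of the span, away from the dense end. Its folds were 52.4 in replicate 1 (45.7 to 59.7, 221 reads) and 67.4 in replicate 2 (59.4 to 76.1, 257 reads), and the peaks were 1419 and 1413 bp wide. The second, at 40810687, had folds of 52.8 and 58.6 over pileups of 217 and 254 reads. The next, at 45201392, had folds of 44.8 and 58.8. The one at 47906127 had nearly equal pileups of 289 and 294 reads but folds of 38.8 and 61.6, with backgrounds of 6.48 and 3.79 reads. In raw reads its difference between lists was thus in the background more than in the pileup. Over all shared sites, however, replicate 2 pileups were 1.25 times those of replicate 1. Scaled by that ratio, the site's pileup was lower in replicate 2 (exact binomial test, two-sided, unadjusted p = 0.0156). It did not pass after adjustment over all shared sites.

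A close pair followed on chromosome 19. The sites at 42561692 and 42570429 lay 8.74 kb apart, with folds of 45.7 and 50.2 at the first and 47.0 and 49.6 at the second. The closest of the 10 strongest sites of chromosome 3 lay 467 kb apart. The site at 159262, near the start of chromosome 19, had the lowest replicate 1 fold of the 20, 33.2 (131 reads), and a replicate 2 fold of 59.0 (225 reads). Of the 20 sites it had the lowest p for a difference in pileup between replicates, with an unadjusted p of 0.00333 and an adjusted p of 0.971 (exact binomial test, two-sided, Benjamini-Hochberg over all shared sites). The others, at 45110830, 36992635 and 44464882, had strengths from 40.7 to 44.5. The fold was higher in replicate 2 at all 10.

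**Figure D4:**
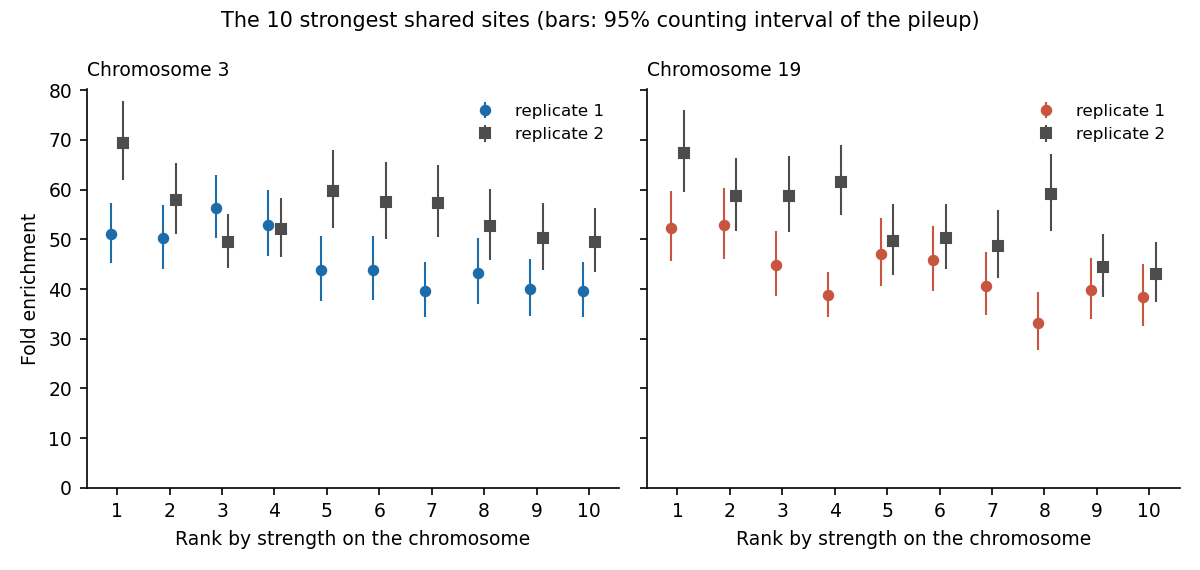
Fold enrichment (vertical axis, from 0) in replicates 1 and 2 of the 10 strongest shared sites of chromosome 3 (left) and chromosome 19 (right), ordered by strength; bars are 95% counting intervals of the summit pileup with the background held fixed. Replicate 2 is higher at 8 of 10 and at 10 of 10 sites.

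Weighed over all sites, the difference in level between replicates was about the same on both chromosomes as elsewhere. The median log2 ratio of replicate 2 to replicate 1 fold was 0.32 on chromosome 3 (95% interval of the median 0.30 to 0.35, SD over sites 0.43). On chromosome 19 it was 0.35 (0.33 to 0.37, SD 0.44), and over all shared sites 0.34. Replicate 2 was the higher at 78.7% of the chromosome 3 sites and 77.9% of the chromosome 19 sites. Across sites Spearman's rho of the folds was 0.816 and 0.813, against 0.819 over all shared sites. Summits of the replicates lay a median of 29 bp apart on both chromosomes.

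Once the level was scaled out, 1 site on the 2 chromosomes passed a test for a difference in pileup between these 2 libraries, and its pair joined different summits. The test treats reads as independent and covers counting error only. Among all 44959 shared sites, 13 (0.0289%) passed an adjusted p of 0.05 (exact binomial test, two-sided), and an unadjusted p of 0.05 was passed by 3.84%. Chromosome 3 had 0 sites past the adjusted and 69 (3.42%) past the unadjusted threshold, and chromosome 19 had 1 and 88 (4.15%). The site was at 48718236 on chromosome 19, with 122 reads in replicate 1 and 62 in replicate 2 (exact binomial test, adjusted p = 3.75e-05). Its summits lay 919 bp apart. Replicate 1 had a single peak from 48717423 to 48719131 with its summit at 48717777, and replicate 2 had 2 peaks there, of which the unpaired one had its summit at 48717782 and 124 reads. The pair therefore set the pileups of different summits against each other. At nearly the same summit the lists had 122 and 124 reads, so the call does not show a site that differed. Of the 13 sites passing genome-wide, 12 had summits more than 100 bp apart, against 7.63% of all shared sites.

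The lowest p on chromosome 3 was at 39879668, where both summits were 28 bp apart. It had 64 reads and a fold of 16.3 (12.6 to 20.8) in replicate 1, and 139 reads and a fold of 36.6 (30.8 to 43.1) in replicate 2. Its unadjusted p was 0.000172 and its adjusted p was 0.286, so it did not pass over the whole table.

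The strongest unpaired peaks of replicate 2 lay within wider replicate 1 peaks. In replicate 2 the strongest unpaired peak of chromosome 3, at 39494086 to 39494539 with a fold of 22.7, overlapped a wider replicate 1 peak whose largest overlap was with another peak. The same held on chromosome 19 for a peak at 21555261 to 21555724 with a fold of 23.4. The summits differed in place: 17 bp from the nearest replicate 1 summit on chromosome 3 and 958 bp on chromosome 19. Of the unpaired replicate 2 peaks, 29 of 806 on chromosome 3 and 44 of 848 on chromosome 19 overlapped some replicate 1 peak. Those that overlapped none had median folds of 4.83 and 4.90. The highest of them were at 37446271 to 37446662 on chromosome 3 (fold 9.86) and at 43342218 to 43342579 on chromosome 19 (fold 10.1). In replicate 1 the strongest peak without overlap was at 37352190 to 37352523 on chromosome 3 (fold 6.67) and at 43160834 to 43161232 on chromosome 19 (fold 7.42). Replicate 1 peaks that overlapped none had median folds of 4.46 and 4.37. For comparison, the paired peaks had median folds of 6.99 and 7.04 in replicate 1, and of 9.14 on both chromosomes in replicate 2.

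Chromosome 19 held a short stretch in which the local background was raised, and chromosome 3 held none. The background, which with 1 read added is the divisor of the fold, was recovered from the deposited fold and p-value of each peak. The lowest background of any peak was 2.98 reads in the first list and 2.83 in the second. At 4 of the 2123 sites of chromosome 19, and at 0 of the 2020 sites of chromosome 3, it was at least 3 times that level in both lists, against 0.0734% of all shared sites. All 4 were consecutive sites within 15.0 kb, from 43725374 to 43740361. A threshold of 2 times gave 10 sites on chromosome 19 (0.471%) and 6 on chromosome 3 (0.297%). These were near the 0.371% of all shared sites, so the contrast between the chromosomes depended on the threshold.

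Within the stretch 3 of the 4 sites had high pileups for the chromosome, with ranks of 3, 7 and 38 of 2123, and the other had rank 483. At 43725374 summit reads numbered 224 and 250, over backgrounds of 20.8 and 14.8 reads, so the folds came to 10.3 and 15.9. That site had rank 3 on chromosome 19 by pileup and rank 464 by strength. At 43740361 the pileups were 198 and 218 reads over backgrounds 3.71 and 3.89 times the lowest, with folds of 16.5 and 18.2, a rank of 7 by pileup and 261 by strength. At 43728381 they were 152 and 142 reads over 4.20 and 4.73 times the lowest, with folds of 11.3 and 9.94. The site between, at 43730291, had 59 and 54 reads and folds of 4.90 in both lists.

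The borders of the stretch were sharp at the resolution of the sites. The site 9.66 kb before it had a background of 1.08 times the lowest in replicate 1 and 1.01 times in replicate 2. The site 14.8 kb after it had 1.40 and 1.52 times. The 42 other sites within 200 kb of 43725374 had median backgrounds of 1.24 and 1.18 times the lowest, and none exceeded 2.20. What raised the background there was not tested, and without a genome of this build the copy number and the gene content of the stretch were not analysed here.

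**Figure D5:**
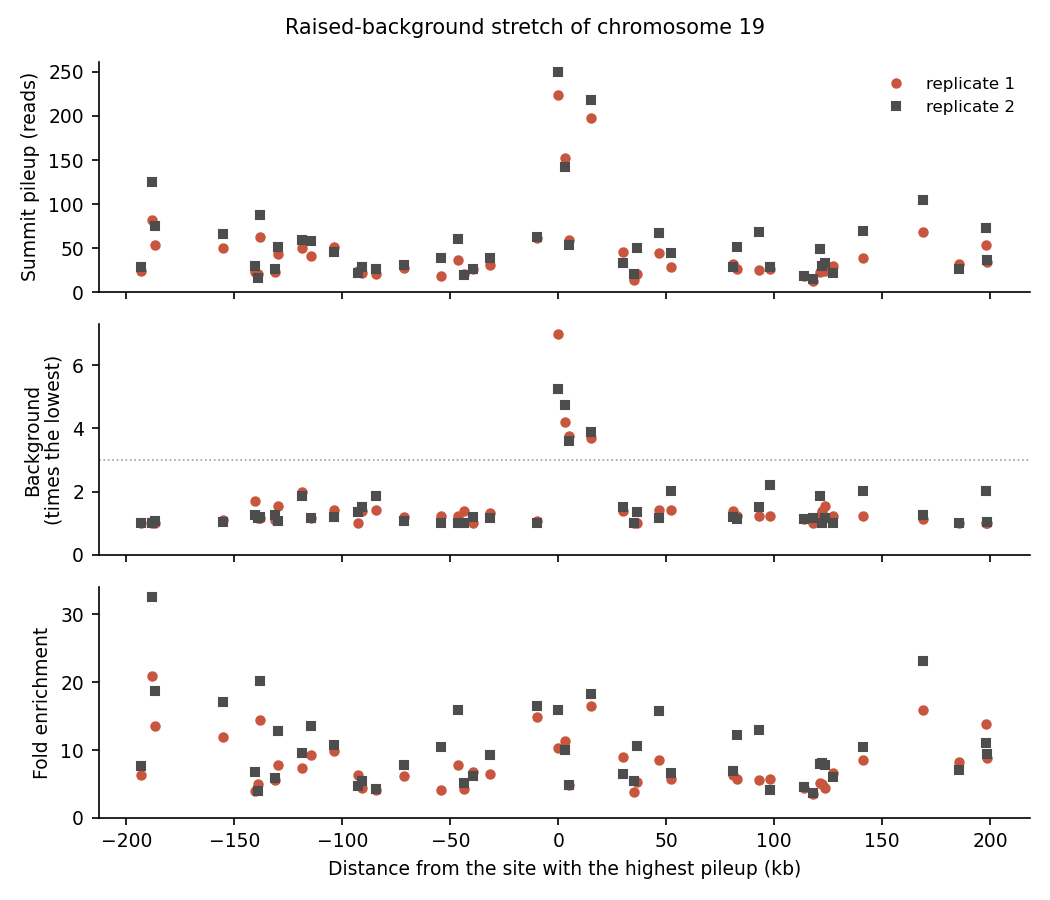
Summit pileup in reads (top), local background in times the lowest background of its list (middle, dotted line at 3) and fold enrichment (bottom) of the shared sites of chromosome 19 within 200 kb of the site at 43725374, by distance from it in kb, in replicates 1 and 2. The 4 sites from 0 to 15.0 kb stand out by background and 3 of them by pileup, but not by fold.

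On chromosome 3 the sites nearest to the threshold were at 35727625, with backgrounds of 3.13 and 2.90 times the lowest, and a close pair at 37035505 and 37036242, with 2.86 and 2.91 times at the first and 2.85 and 2.88 times at the second. The pair had folds of 5.79 and 7.69 at the first site and 6.85 and 7.44 at the second, over pileups of 54 to 70 reads. On chromosome 19 the next site was at 48751742, with 3.42 and 2.75 times. Outside such places the background was low and alike, with medians of 3.36 reads in replicate 1 and 3.35 in replicate 2 on both chromosomes.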

How the data were processed

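One peak list per ChIP replicate was used, so peaks had been called per sample. The submitters' processing notes name Bowtie 0.12.7, a read aligner, and MACS2, a peak caller; the sources used here do not give the calling threshold, the genome build or the control. In the deposited lists fold is the ratio of pileup to local background at the summit, with 1 read added to each, the deposited −log10 p-values and q-values are those of the peak, and the deposited score is 10 times the −log10 q-value without its decimals. No deposited q-value exceeded 0.00563 (replicate 1) or 0.00871 (replicate 2). Depth per library is unknown.

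Pileups and backgrounds were recovered as the whole-number pileup that met fold = (pileup + 1) / (background + 1) and the Poisson p within 0.001 on the −log10 scale, which was found for 48191 of 48191 and 62340 of 62340 peaks. Chromatin was crosslinked for 10 min in 1% formaldehyde, and libraries had 15 PCR cycles. Reads carried no molecular identifiers that the labels mention, so intervals cover counting error only. Fold intervals are exact Poisson with the background fixed; shares have Wilson intervals. Pileups of a pair were compared by an exact binomial test scaled by the ratio over all shared sites (1.25) and adjusted over all 44959. That test sets 1 library against 1 library and treats reads as independent molecules, so its p-values cover counting error only. Scripts (Python 3.11.15, scipy 1.17.1) were tested on simulated data. The design has 1 group with 2 samples, so densities and strengths carry no test between groups.

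The members, tests and thresholds were chosen with earlier results of these data known. Sites named are the 10 strongest, the 5 longest empty intervals, the 5 fullest bins and the 3 largest runs per chromosome, every site with raised background, and the strongest unpaired and lowest-p sites; exceptions are marked in the text.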

Additional observations from a re-analysis of the deposited data

How the results depend on the processing

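Of 76 recomputed values, 48 stayed within their spread between replicates or, for counts, within 1.5 times, and 28 did not. None reversed, but counts, densities, shares and ratios of densities cannot change sign. The spread was taken from the values of the single lists. Settings with a single list were judged against that same spread, so the tally is no test of robustness. No paired analysis was possible because files were used of the ChIP group alone. The search for motifs at summits was not run, since no genome of the lists' build was used. A single list in place of both gave 47.4 to 61.8 sites per Mb on chromosome 3 and 45.2 to 58.5 on chromosome 19, outer-to-middle ratios of 7.13 to 7.52 and 8.11 to 8.64, and longest intervals of 1.56 to 1.65 Mb and 0.887 to 0.890 Mb. It also gave 49.3% to 51.0% and 53.9% to 56.2% of sites in the densest 25% of bins, an r between the profiles of 0.953 to 0.961, median strengths of 6.99 to 9.14 and 7.04 to 9.14, and kept 7 to 8 and 6 to 7 of the 10 strongest sites. Ranked by pileup, 6 of the 10 were kept on each chromosome. With 30% at each end against the middle 40%, the ratios were 5.09 on chromosome 3 and 5.51 on chromosome 19. At q of at most 1e-05 the longest interval of chromosome 19 was 0.987 Mb. Bins of 500 kb put 49.6% and 59.3% of sites in the densest 25%, and bins of 2 Mb put 53.4% on chromosome 19. The r was 0.913 at 0.5 times and 0.976 at 2 times the share width, 0.860 from the start and 0.927 from the end. With pileups in place of folds the log2 ratio of chromosome 19 was 0.31. A background of 2 times the lowest gave 6 and 10 sites, against 0.371% of all shared sites. At 4 times it gave 2 on chromosome 19, against 0.0289% of all shared sites. Keeping pairs with summits within 100 bp, chosen after seeing the data, left 0 sites of chromosome 19 that differed in pileup. Beyond the construction of each setting, the cause was not tested. The lowest pileup of a called peak was 12 reads in replicate 1 and 11 in replicate 2, and sites below the calling threshold were not analysed here.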
